A study of Mus musculus with 23 samples.

Results

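Tumor cells sorted from B16F10 melanomas were compared between the 2 libraries labelled sg492 and the 2 control libraries. B16F10 is a pigmented mouse melanoma line that grows in C57BL/6 mice, and per the methods it was injected under the skin of male mice aged 6 to 8 weeks. The control libraries carry the genotype label WT. The libraries labelled sg492 carry the label NR2F6 KO, from cells that had received Cas9 protein and a Cy3-labelled sgRNA against Nr2f6 and had been selected for Cy3, and no cloning step is given for them. Tumors were minced and digested with collagenase D for 1 h, stromal cells were depleted with magnetic beads, and poly(A) RNA was sequenced from 1 end with 75-base reads. The members were the 12811 of 47643 genes whose mean over these 4 of the 23 libraries of the series reached 1 TPM, where TPM is a transcript level scaled for gene length and for the total of the library. The 2 sorted libraries labelled sg495, a second guide against the same gene, and the libraries of cultured cells and bulk tumors labelled control and sg492 were used for contrast. The labels do not say whether the 2 libraries of a group came from different mice, so the p-values measure only the spread between these libraries.

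NR2F6 is an orphan nuclear receptor, a transcription factor of the COUP-TF family that mostly acts as a repressor. In T cells it is known to restrain cytokine genes. A frameshift made by Cas9 can abolish a protein while its mRNA remains, so the mRNA level is only an indirect check on a knockout label. The study checked the knockout B16F10 cells of both guides by qPCR and immunoblot, and its methods also give sequencing of the targeted regions. Tumor cells also carry programs set by their surroundings, among them the responses to hypoxia, to interferon and to heat or unfolded proteins, and these are described as gene lists.

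Nr2f6 itself had 20.32 and 17.73 TPM in the controls and 19.84 and 25.7 TPM in the libraries labelled sg492. The groups overlapped, and the library labelled sg492 replicate 2 was the highest of the 4. On the log2(TPM + 1) scale used for every difference here, the difference of the means was 0.24 (SE 0.158, limma adjusted p = 0.758). The sorted libraries labelled sg495 had 10.6 and 12.18 TPM, below the other 4, and the direct contrast of sg495 with sg492 gave -0.93 (SE 0.158, limma adjusted p = 0.0836). In cultured cells Nr2f6 had 31.88 and 32.9 TPM in control against 26.55 and 31.5 TPM with sg492, and in bulk tumors 25.83 and 25.24 TPM against 22.31 and 23.31 TPM. The target gene was therefore lower in both sg492 libraries of the other sample types but not in the sorted cells, and every direction below is that of libraries named by their label.

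Melanocyte genes stood at the levels of a pigmented melanoma in all 4 libraries. Dct and Tyrp1, which encode enzymes of melanin synthesis, had 5823.31 and 5356.46 TPM and 4765.63 and 4726.02 TPM in the controls, and 5761.42 and 6107.07 TPM and 5189.66 and 5530.04 TPM in the libraries labelled sg492. Ptprc, the leukocyte antigen CD45, had between 0 and 0.07 TPM, and Cd3e, Cd8a, Adgre1, C1qa, Cdh5 and Krt5 were listed at 0 in the 4 libraries. No gene of the NK cell, neutrophil or adipocyte lists reached a mean of 1 TPM. Other genes of the remaining lists did have values. Over the 4 libraries the leukocyte list summed to between 836.6 and 865.1 TPM and the endothelial list to between 144.2 and 162 TPM. The erythroid list summed to between 96.01 and 115.8 TPM and the fibroblast list to between 66.19 and 71.57 TPM. Which cells these values came from was not tested. In RNA from a sorted suspension, fewer cells of a type and less RNA per cell cannot be told apart. Each library had 12577 to 12875 genes at 1 TPM or more, with a mitochondrial share of the TPM of 4.0% and 4.03% in the controls and 3.45% and 4.73% in the libraries labelled sg492. The methods give 23 to 31 M reads (M, mega) as the range of depth. TPM carry no read count, so the depth of each library is unknown. At the edge of the expression rule, Vgf had a mean of 1 TPM and was kept, and Rps2-ps6 had a mean of 0.998 TPM and was left out.

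Of the 12811 genes, 5 were called between the libraries labelled sg492 and control, by an adjusted p (Benjamini-Hochberg) under 0.05 together with at least a 1.5-fold difference in limma, which is 0.039% of the genes tested. All 5 had an adjusted p of 0.0497, and 927 genes had an unadjusted p below 0.05. With 2 libraries against 2, a 2-sided exact permutation test of 1 gene cannot go below p = 0.333, so these p-values come from a model fitted across all genes, with the spread estimated from the 6 sorted libraries. None of the called genes encodes a protein. The called genes were the 2 small nucleolar RNA (snoRNA) genes Gm24837 and Snord88a, the microRNA gene Mir678, the long noncoding RNA gene Gm26917, and RP23-383B18.1, annotated as a transcript still to be verified by experiment. These calls depended on the settings. Without the expression filter, or with small RNA, rRNA and mitochondrial genes left out, 0 genes were called in limma, with 1454 and 966 at an unadjusted p below 0.05. Leaving out a library gave 1 gene without control replicate 1, 0 without control replicate 2 (403 at an unadjusted p below 0.05), 0 without sg492 replicate 1 (1189) and 7 without sg492 replicate 2, and 0 of the 5 genes were among those.

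**Figure D1:**
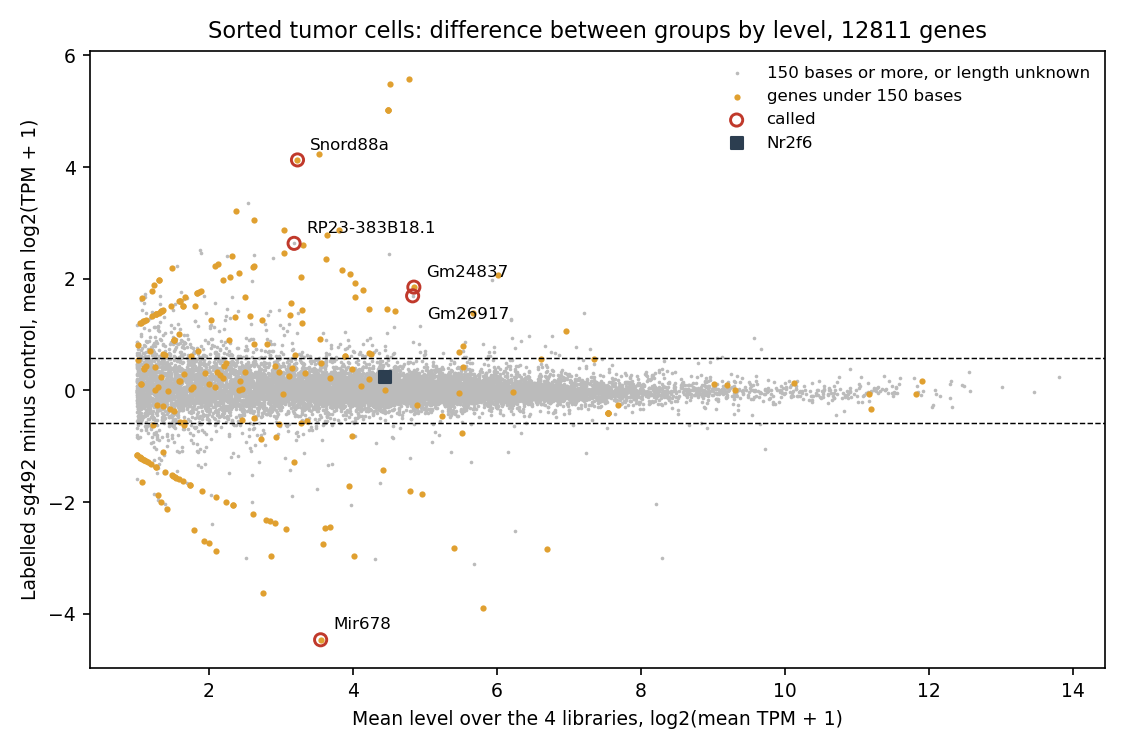
Each point is 1 of the 12811 genes, with its mean level over the 4 libraries on the x axis and the difference between the libraries labelled sg492 and control on the y axis, both on a log2(TPM + 1) scale. Dashed lines mark 1.5-fold, orange points are genes under 150 bases, red circles are the 5 called genes and the square is Nr2f6 at 0.24. The orange points take up most of the upper and lower edges.

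The 3 shortest called genes are printed because they are about as short as a read. SnoRNAs of the C/D type guide methylation of ribosomal RNA and are cut from introns of other genes, and their D box reads CTGA. MicroRNAs repress mRNAs that match their seed, bases 2 to 8. The snoRNA sequences are those of GENCODE M21 on GRCm38, with the CTGA near the 3′ end in capitals. The mature microRNA is that of RefSeq on GRCm38.p6, with the seed in capitals.
Snord88a: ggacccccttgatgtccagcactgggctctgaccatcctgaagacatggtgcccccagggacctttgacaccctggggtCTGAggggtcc
Gm24837: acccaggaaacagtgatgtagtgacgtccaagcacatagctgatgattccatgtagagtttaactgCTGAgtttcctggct
mmu-miR-678: gUCUCGGUgcaaggacuggagg
Snord88a lies at chr7:44250135-44250224 on the plus strand, within an exon of 2410002F23Rik. Gm24837 lies at chr4:41211502-41211582 on the minus strand, inside Ubap2. The mature miR-678 lies at chr10:76207333-76207354 on the minus strand, within an exon of Prmt2. CTGA was found in the last 20 bases of 35.1% of the 1453 snoRNA transcripts under 150 bases, on the strand of the gene. TGATGA, the core of the C box, was found in the first 20 bases of 22.4% of them and not in that window of either called snoRNA. The seed of miR-678 was held by 1 of the 1738 mature microRNAs of the table, which is miR-678 itself.

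Snord88a was listed at 0 in both controls and had 13.29 and 20.36 TPM in the libraries labelled sg492. It was listed at 0 in both sorted sg495 libraries and in all 12 libraries of cultured cells and bulk tumors. The 2 sorted libraries labelled sg492 were thus the ones with a value. Snord88a passed the expression rule only through them, and the other sorted groups gave its fit no spread. Its host gene 2410002F23Rik had 67.84 and 61.71 TPM in the controls and 68.08 and 65.14 TPM in the libraries labelled sg492.

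Mir678 showed the opposite arrangement, with 25.77 and 17.26 TPM in the controls and a listing at 0 in both libraries labelled sg492. The sorted sg495 libraries had 18.33 and 38.94 TPM, and Prmt2, whose exon holds it, had 19.93 and 15.81 TPM in the controls and 21.4 and 22.88 TPM in the libraries labelled sg492. No fold is given for Snord88a or Mir678, because 1 group was listed at 0 and the count behind that listing is unknown.

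Gm24837 had 11.03 and 11.95 TPM in the controls and 48.7 and 39.69 TPM in the libraries labelled sg492, a log2 difference of 1.85 (SE 0.154). It was listed at 0 in both sorted sg495 libraries and in 11 of the 12 libraries of cultured cells and bulk tumors. The sg495 libraries thus gave its fit no spread. In the fit of 18 libraries the SE was 0.707, with a limma adjusted p of 0.266. Its host Ubap2 had 68 and 68.12 TPM against 62.41 and 71.34 TPM, which overlapped.

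A 75-base read can start at 16 positions of Snord88a, at 10 of Mir678 and at 7 of Gm24837. Among the 231 tested genes under 150 bases, 171 (74.0%) were listed at 0 in at least 1 of the 4 libraries, against 148 of 12543 longer genes (1.18%). The median absolute difference between the 2 libraries labelled sg492 was 1.66 among the short genes, against 0.164 over all genes. Larger differences than those called occurred among short genes that were not called. Mir130c, named after its values were seen, was listed at 0 in both controls and had 42.34 and 45.54 TPM in the libraries labelled sg492, but 51.55 and 1.73 TPM in the sg495 libraries that share the estimate of spread. Its adjusted p was 0.528. Gm25789, a snoRNA gene named after its values were seen, was listed at 0 in 1 control and at 220.81 TPM in the other. Whether reads of these genes belong to the short RNA or to the host transcript cannot be told apart from TPM, since poly(A) libraries do not capture the mature small RNAs by their tails.

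The 2 longer called genes had the same pattern in both guides. Gm26917 (ENSMUSG00000097971, chromosome 17, 3329 bases of exon) had 14.11 and 10.92 TPM in the controls and 45.17 and 39.8 TPM in the libraries labelled sg492, a log2 difference of 1.69 (SE 0.144). The sorted sg495 libraries had 38 and 34.22 TPM. In cultured cells, control had 8.52 and 10.76 TPM and sg492 had 9 and 10.97 TPM, so the groups overlapped there. Bulk controls had 26.88 and 19.95 TPM, above the sorted controls, and bulk sg492 tumors had 33.38 and 22.46 TPM. RP23-383B18.1 (ENSMUSG00000109357, chromosome 7, 229 bases) had 1.69 and 1.32 TPM in the controls, 12.13 and 17.3 TPM in the libraries labelled sg492 and 10.83 and 13.88 TPM in the sg495 libraries, with a log2 difference of 2.63 (SE 0.219) between sg492 and control. It was listed at 0 in the 4 control and sg492 bulk tumors, and cultured cells gave 0 and 3.35 TPM for control against 0 and 4.14 TPM for sg492. It lies opposite an exon of Gde1, and the strand setting of the counting is not given in the sources used here, so the 2 cannot be fully told apart. Gde1 had 75.99 and 78.82 TPM in the controls and 71.57 and 66.88 TPM in the libraries labelled sg492.

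**Figure D2:**
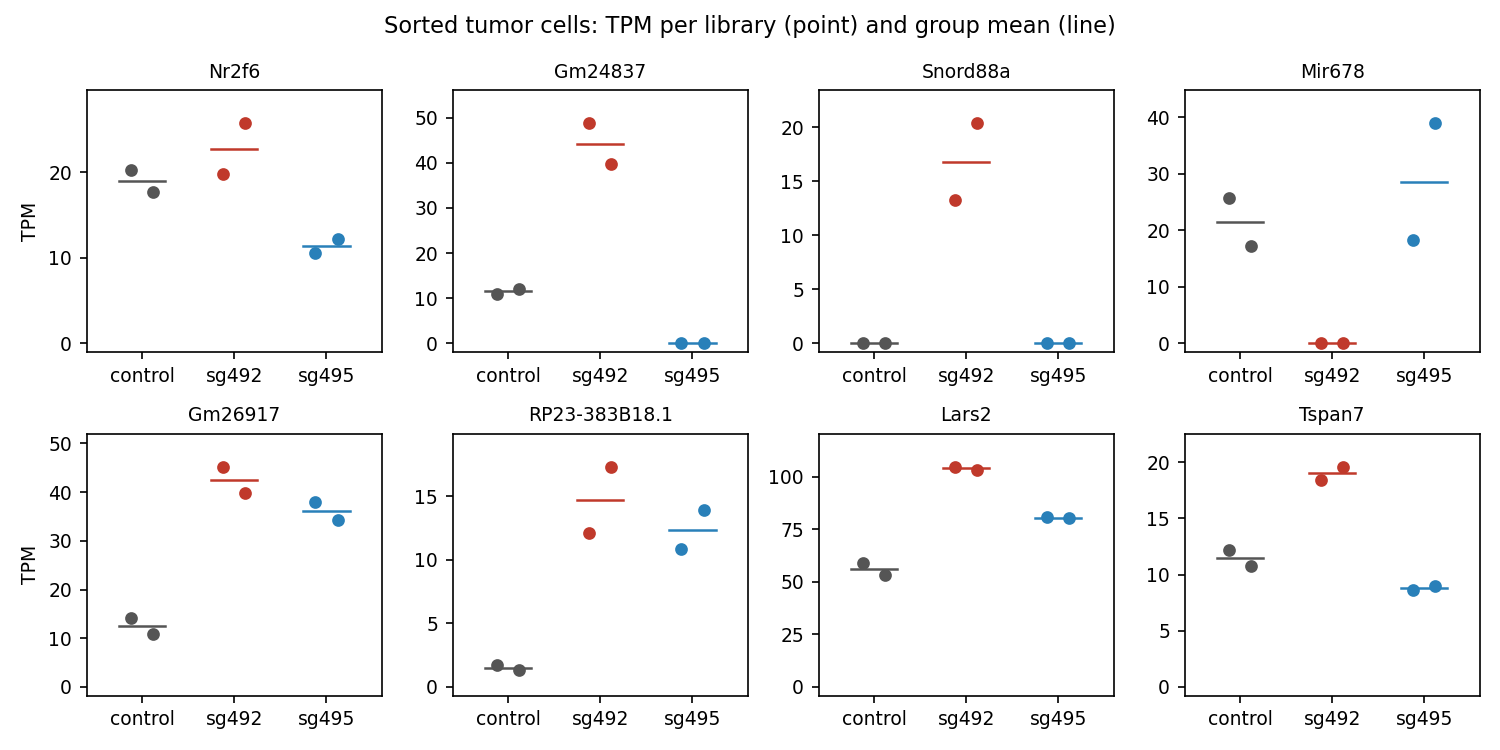
TPM of 8 genes in the 6 sorted libraries, with 1 point per library and a line at the mean of each group labelled control, sg492 or sg495, each panel on its own axis from 0. Nr2f6 overlaps between control and sg492, Snord88a has a value in 1 group, Mir678 is listed at 0 in 1 group, and Gm26917 and RP23-383B18.1 are high in both guides.

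Levels of ribosomal RNA are given beside Gm26917 and Lars2, the protein-coding gene nearest to a call. Of the 5 tested genes annotated as rRNA, 1 had both libraries labelled sg492 above both controls and 0 had both below, and none was called. Over all genes tested these shares were 20.5% above and 20% below, so the count for rRNA is near the share over all genes. Together they summed to 598.6 and 629.5 TPM in the controls, 1227 and 844.4 TPM in the libraries labelled sg492, and 752.2 and 1262 TPM in the sg495 libraries. The 2 mitochondrial rRNA genes summed to 801.5 and 783.1 TPM, 1066 and 1258 TPM, and 1792 and 1234 TPM. Gm42418, a second long noncoding RNA gene of chromosome 17 and named after its values were seen, had 70.47 and 69.89 TPM in the controls and 189.72 and 101.46 TPM in the libraries labelled sg492. Lars2, the mitochondrial leucyl-tRNA synthetase, had 59.06 and 53.07 TPM in the controls, 104.65 and 103.43 TPM in the libraries labelled sg492 and 80.91 and 80.22 TPM in the sg495 libraries (log2 difference of sg492 from control 0.88, SE 0.0806, limma adjusted p = 0.0543). Cultured cells had 48.63 and 60.37 TPM of it in the controls and 43.81 and 47.32 TPM with sg492, the opposite order. The part of rRNA in these differences was not tested.

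The 2 libraries labelled sg492 differed from each other more than the 2 controls did. A mean of 2 libraries varies less than a single library, so the difference of the group means is not on equal terms with these values. The median absolute log2 difference per gene was 0.164 between the 2 libraries labelled sg492, 0.114 between the 2 controls and 0.122 between the group means. Differences of 1.5-fold or more numbered 1201 (9.37%), 725 (5.66%) and 703 (5.49%) of the genes. For 3572 genes (27.9%) the difference of the means was larger than both differences between replicates, and the share expected from noise alone was not computed. Among the 9438 protein-coding genes averaging 5 TPM or more, 309 differed by 1.5-fold or more between the 2 libraries labelled sg492, 101 between the controls and 123 between the group means. Within a group, Pearson's r over the tested genes was 0.982 for the controls and 0.969 for sg492, and a control with a library labelled sg492 gave 0.97 to 0.974. These r are across genes, which are not independent replicates, and carry no test.

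**Figure D3:**
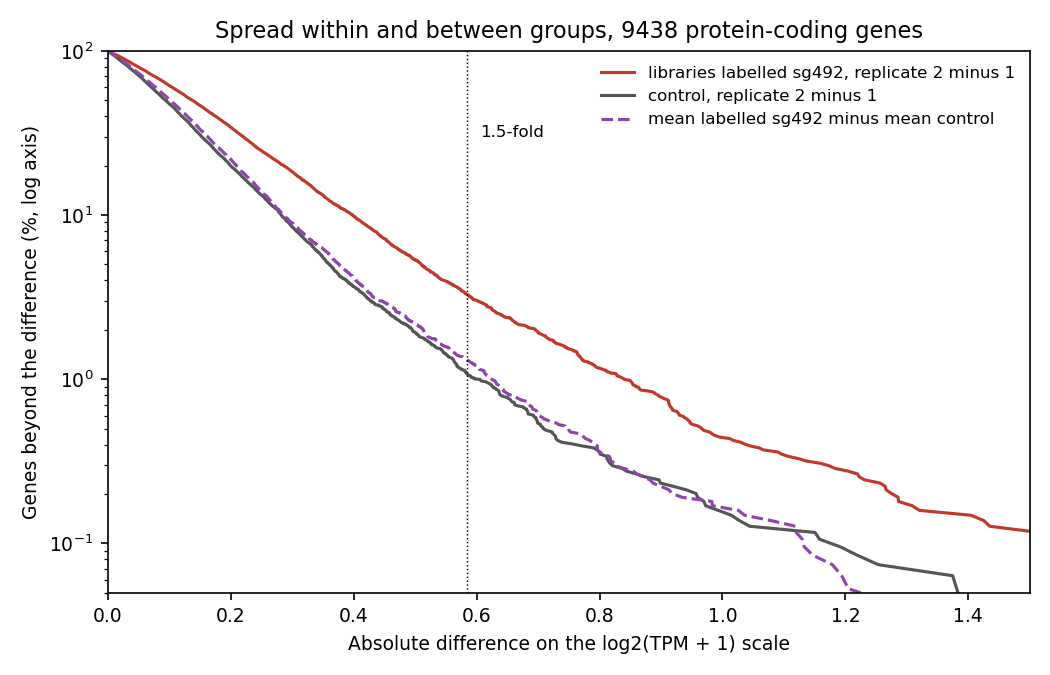
The share of the 9438 protein-coding genes averaging 5 TPM or more (y axis, percent, log axis) whose absolute log2 difference exceeds the value on the x axis. The curve for the 2 libraries labelled sg492 lies above the other curves, and the curve for the difference of group means runs close to that for the 2 controls.

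The 8 protein-coding genes with the widest gap between the 2 libraries labelled sg492, at a mean of at least 5 TPM, included genes with close copies in the genome. Lsm7, a subunit of the U6 snRNA-binding ring, had 23.29 TPM in 1 and was listed at 0 in the other, with 6.58 and 18.86 TPM in the controls. Gm11007 and Gm2007 had identical values in the 4 libraries, so their reads cannot be told apart, with 9.77 and 48.66 TPM in the libraries labelled sg492. Fyb, an adaptor of leukocyte signaling, had 6.98 and 27.46 TPM and 19.28 and 11.49 TPM in control. The group also held Gm21970, Gm14434 and Hist1h1d, a linker histone with 6.72 and 0.94 TPM.

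The 8 widest gaps between the 2 controls took in interferon-induced genes. Gbp2, a guanylate-binding GTPase, had 9.29 and 1.26 TPM in the controls and 12.88 and 10.46 TPM in the libraries labelled sg492. Irgm1, an immunity-related GTPase, had 12.82 and 4.33 TPM and 12.01 and 10.85 TPM. Tmem140 had 17.42 and 5.27 TPM in the controls and 17.38 and 17.96 TPM in the libraries labelled sg492. S100a6, a calcium-binding protein, had 77.16 and 28.19 TPM and 72.39 and 64.33 TPM. In each of these 4 genes the libraries labelled sg492 lay near control replicate 1, and control replicate 2 was the lowest of the 4. The other genes of this group included Lsm7, Gm10226 and Gm4724.

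Protein-coding genes averaging 5 TPM or more gave 116 genes with a fold of 1.5 or more and with both libraries labelled sg492 on the same side of both controls, 85 higher and 31 lower, none with an adjusted p below 0.05. Of these 9438 genes, 123 (1.3%) passed 1.5-fold between the group means, 87 higher and 36 lower. The 116 are nearly all of those, so the fold rule almost fixed that their libraries were apart. The excess of higher over lower genes was not tested. Over all 12811 genes, without a fold rule, both libraries labelled sg492 lay above both controls for 20.5% and below both for 20%, which is not a like share for the 116. The 12 genes with the smallest unadjusted p in each direction were chosen, and those reported are described next, with adjusted p-values from 0.0543 for Lars2 to 0.528.

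Actin-binding proteins and adhesion proteins were among the 12 higher genes. Tmsb4x, which encodes the actin monomer-binding peptide thymosin beta 4, had 34.51 and 30.39 TPM in the controls and 53.36 and 66.61 TPM in the libraries labelled sg492. In the sg495 libraries it had 18.56 and 24.48 TPM, and the direct contrast of sg495 with sg492 gave a log2 difference of -1.44 (SE 0.169, limma adjusted p = 0.0359). Tmsb4x was chosen for its high values in the libraries labelled sg492, and this contrast uses the same values. Its size is therefore widened by the choice, and its p-value is no independent test. Cnn2, the actin-binding calponin 2, had 112.89 and 87.14 TPM against 191.01 and 154.03 TPM. Flrt3, a transmembrane adhesion protein, had 3 and 3.34 TPM against 9.86 and 7.37 TPM, a log2 difference of 1.19 (SE 0.217). Nckipsd, a regulator of actin assembly, had 4.96 and 4.71 TPM against 10.53 and 8.17 TPM.

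Tspan7, a tetraspanin of the cell surface, had 12.22 and 10.74 TPM in the controls and 18.45 and 19.57 TPM in the libraries labelled sg492. The sg495 libraries had 8.59 and 9.01 TPM and differed from sg492 by -1.03 (SE 0.118, limma adjusted p = 0.0351). Tspan7 was also chosen for its high sg492 values, so the same limit holds for this contrast as for that of Tmsb4x. In cultured cells Tspan7 had 4.11 and 4.61 TPM in the controls and 12.85 and 13.1 TPM with sg492, while sg495 gave 3.87 and 4.53 TPM. Both sg492 libraries were thus above the controls in sorted and in cultured cells.

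Vwf, the von Willebrand factor of endothelial cells, had 13.87 and 13.39 TPM in the controls and 31.79 and 26.07 TPM in the libraries labelled sg492, a log2 difference of 1.03 (SE 0.169). Of the 12 endothelial genes, 3 were tested, and Vwf was the one with its libraries apart. Cdh5 and Tek were listed at 0 in the 4 libraries, Kdr was at 0.01 TPM or less, and Pecam1 had 0.15 and 0.43 TPM in the controls and 0.37 and 0.85 TPM in the libraries labelled sg492. The list summed to 148.8 and 144.2 TPM in the controls and 156.7 and 162 TPM in the libraries labelled sg492. In cultured cells, which hold no endothelial cells, Vwf had between 0.52 and 1.38 TPM in the 4 control and sg492 libraries. The part of other cells in the level of Vwf was not tested.

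The other higher genes had varied roles. Smg1, a kinase of nonsense-mediated mRNA decay, had 15.82 and 14.98 TPM in the controls and 23.92 and 28.68 TPM in the libraries labelled sg492. Ccnl1, a cyclin of transcription and splicing, had 80.29 and 67.14 TPM against 127.8 and 127.73 TPM, with 133.48 and 97.74 TPM in the sg495 libraries. Rad52, a recombination protein, had 18.32 and 16.58 TPM against 25.65 and 28.03 TPM. Rassf1, a scaffold of the Ras-association family, had 33.62 and 34.72 TPM against 62.36 and 50.5 TPM. In cultured cells the order for Rassf1 was the opposite, with 48.61 and 48.93 TPM in the controls and 46.15 and 44.02 TPM with sg492. E330034G19Rik, a gene of unassigned role, had 32.37 and 24.73 TPM against 45.3 and 45.6 TPM.

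Receptors and regulators of signaling were among the 12 lower genes. Spry1, an inhibitor of receptor tyrosine kinase signaling, had 9.61 and 11.67 TPM in the controls and 4.71 and 3.43 TPM in the libraries labelled sg492, a log2 difference of -1.20 (SE 0.227). Socs3, an inhibitor of JAK-STAT signaling, had 9.63 and 9.81 TPM against 5.83 and 5.21 TPM, while the sg495 libraries had 12.62 and 16.9 TPM. Traf3ip2, the adaptor of the interleukin-17 receptor, had 12.5 and 11.52 TPM against 6.29 and 7.69 TPM. Calcrl, a receptor of the calcitonin family, had 6.08 and 8.33 TPM against 2.49 and 3.24 TPM, with 2.4 and 3.48 TPM in the sg495 libraries.

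The remaining lower genes follow. Cd82, a tetraspanin known as a metastasis suppressor, had 10.69 and 10.57 TPM in the controls and 6.11 and 5.57 TPM in the libraries labelled sg492. Rcn3, a calcium-binding protein of the endoplasmic reticulum, had 29.15 and 29.13 TPM against 19.21 and 12.74 TPM. Sass6, which builds centrioles, had 17.99 and 19 TPM against 11.45 and 12.48 TPM. Cpne1, a membrane-binding copine, had 14.94 and 14.11 TPM against 7.77 and 7.03 TPM. Efcab7 had 27.21 and 28.05 TPM against 19.26 and 15.58 TPM. Rps7, a protein of the small ribosomal subunit, had 499.73 and 481.72 TPM against 346.24 and 292.91 TPM. Eno1b, with 9.22 and 8.56 TPM against 5.04 and 4.53 TPM, is a close copy of the glycolytic enolase gene Eno1, so its reads are uncertain.

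**Figure D4:**
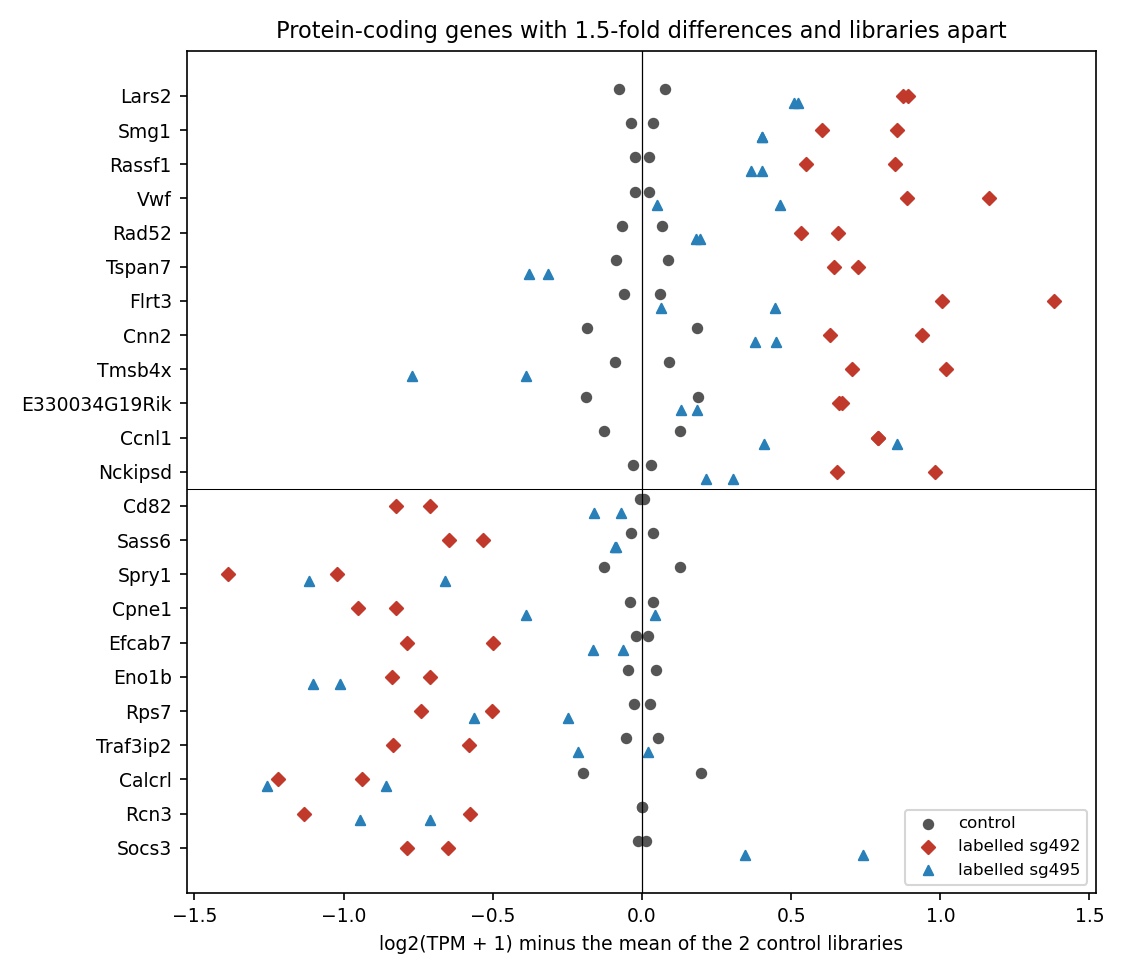
The 12 higher protein-coding genes (top) and those reported of the 12 lower (bottom), with each library's log2(TPM + 1) minus the mean of the 2 controls on the x axis and 1 symbol per library for control, sg492 and sg495. The groups labelled control and sg492 do not overlap in any gene, which the choice of genes fixed, and the sg495 libraries lie on either side of control.

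Cultured cells and bulk tumors have controls of their own. Of the 85 higher genes, 29 (34.1%) had both sg492 libraries above both controls in cultured cells, where 28.7% of all protein-coding genes at 5 TPM did, and 15 (17.6%) had both below, against 13.8%. Of the 31 lower genes, 14 (45.2%) were below both controls in cultured cells, against the same 13.8%, and 3 (9.68%) were above. Cd82, Spry1, Rps7, Calcrl and Rcn3 were below both controls in cultured cells among the 12 named lower genes, with Calcrl at 4.13 and 4.1 TPM in the controls and 2.38 and 2.83 TPM with sg492. In bulk tumors, which keep their stroma, 24 of the 85 (28.2%) were above both controls, against 29.8% of all, and 4 of the 31 (12.9%) were below both, against 12%. Rps7 was below both controls there too, with 619.07 and 569.77 TPM against 497.49 and 471.56 TPM.

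Tests of the difference itself called few genes. The sg492 effect was called as different between sorted and cultured cells for 4 of 12513 genes (0.032%), which were Snord88a, Mir678, Bmyc and Ehd4. For Snord88a only the sorted libraries labelled sg492 had a value, so its calls rest on groups without spread. Bmyc, a gene of the Myc family, had 14.22 and 12.08 TPM in the controls and 9.57 and 9.98 TPM in the sorted libraries labelled sg492, but 2.82 and 3.4 TPM against 6.88 and 6.73 TPM in cultured cells, a difference of the effects of -1.32 (SE 0.173, limma adjusted p = 0.0312). Ehd4, a protein of endosomal membranes, had 18.98 and 20.84 TPM against 13.89 and 14.5 TPM in sorted cells, and 21.82 and 22.51 TPM against 28.36 and 26.98 TPM in cultured cells (difference -0.77, SE 0.111, limma adjusted p = 0.045). Against bulk tumors, 3 of 13395 genes (0.0224%) were called, Snord88a, Mir678 and the 128-base gene RP23-121N17.3. For Lars2 and Rassf1, whose order was reversed in cultured cells, the adjusted p of the difference was 0.149 and 0.156. With median-of-ratios scaling Snord88a was the 1 gene called against cultured cells, and the adjusted p was 0.0513 for Bmyc, 0.117 for Ehd4 and 0.0522 for Mir678 in limma. Leaving out 1 library moved the count against cultured cells to between 1 and 15, and that against bulk tumors to between 4 and 63, the last without bulk control replicate 1.

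The libraries of the other guide were set directly against those labelled sg492. Of the 12811 genes, 38 (0.297%) were higher in sg495 and 19 (0.148%) were lower. That count fell to between 2 and 7 when any 1 of the 4 libraries was left out. Of the 18 tested genes of MHC class I and peptide loading, 13 were called higher in sg495, with a median log2 difference of 2.11 over the 18. B2m, the light chain of class I, had 343.78 and 238.4 TPM in the controls, 406.36 and 330.54 TPM in the libraries labelled sg492 and 1518.09 and 2086.41 TPM in the sg495 libraries. Cd74, the invariant chain of class II, had 1.77 and 1.82 TPM in sg492 and 92.42 and 92.87 TPM in sg495. The study took its effectors of NR2F6 from its sg495 libraries, chosen for better separation from control. It also reported lower Nacc1 and Fkbp10 by qPCR after Nr2f6 knockout or knockdown, and NR2F6 binding within Nacc1. Nacc1, which the study describes as an effector, had 61.75 and 63.54 TPM in the controls and 61.42 and 63.16 TPM in the libraries labelled sg492, which overlapped. With sg495 it had 34.18 and 35.03 TPM and differed from sg492 (log2 difference -0.83, SE 0.0746, limma adjusted p = 0.0182). Fkbp10, a collagen chaperone that the study also names as an effector, had 41.49 and 44.91 TPM in the controls, 25.4 and 33.18 TPM in the libraries labelled sg492 and 26.09 and 20.78 TPM with sg495. Its difference between sg492 and control was -0.56 (SE 0.164), with groups apart and an unadjusted p of 0.0141 in limma that did not pass the adjustment. Cxcl10, a chemokine induced by interferon, had 42.43 and 56 TPM in the controls and 67.86 and 41.83 TPM in the libraries labelled sg492, which overlapped.

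Gene lists of known programs are described by their counts of genes with libraries apart, to be read against 20.5% higher and 20% lower over all genes, and by their median log2 difference, which was 0.003 over all genes. No gene of any list was called.

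Interferon-stimulated genes had 14 of 44 tested genes higher (31.8%) and 1 lower (2.27%), with a median of 0.34. Between the 2 controls the median was -0.55 from replicate 1 to replicate 2, and 40 of the 44 genes were lower in control replicate 2. Over all genes, 7279 of 12811 were lower in that library. Between the libraries labelled sg492, 31 of the 44 genes were lower in replicate 2, with a median of -0.201. Tgtp2, an interferon-induced GTPase, had 5.21 TPM in control replicate 1 and was listed at 0 in replicate 2, with 6.48 and 3.97 TPM in the libraries labelled sg492. Igtp had 3.61 and 0.35 TPM in the controls and 4.51 and 4.4 TPM in the libraries labelled sg492. Irf1, an interferon-induced transcription factor, had 6.4 and 2.91 TPM against 12.34 and 7.47 TPM, above both controls. With control replicate 2 left out, the median of the list was 0.10, and with control replicate 1 left out it was 0.55. MHC class I and peptide loading had 3 of 18 genes higher and 0 lower, with a median of 0.24 that was -0.003 without control replicate 2. Tap2, a subunit of the peptide transporter, was among the 3, with 1.7 and 2.52 TPM in the controls and 4.32 and 4.33 TPM in the libraries labelled sg492.

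Cholesterol synthesis genes had 14 of 24 tested genes lower (58.3%) and 0 higher, with a median of -0.18. Hmgcs1, the synthase of HMG-CoA, had 92.13 and 97.12 TPM in the controls and 79.07 and 59.24 TPM in the libraries labelled sg492, a log2 difference of -0.46 (SE 0.156). Insig1, which restrains the SREBP pathway, had 239.57 and 292.47 TPM against 224.95 and 182.89 TPM. The lower level lay mainly in sg492 replicate 2, where 23 of the 24 genes were below replicate 1. Relative to the mean of the controls, the median over the list was -0.071 in sg492 replicate 1 and -0.341 in replicate 2. The sg495 libraries had 70.34 and 58.7 TPM of Hmgcs1.

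Heat shock chaperones had 7 of 16 tested genes higher (43.8%) and 0 lower, with a median of 0.15. Hspa1b, an inducible HSP70, had 38.11 and 45.47 TPM in the controls and 102.98 and 102.19 TPM in the libraries labelled sg492. Its 2 sg495 libraries had 71.04 and 300.21 TPM, and with that spread the log2 difference of 1.28 had an SE of 0.597. Hsph1, an HSP110 chaperone, had 79.28 and 92.33 TPM against 144.69 and 127.45 TPM, and Dnajb1, an HSP40 cochaperone, had 39.51 and 50.52 TPM against 85.45 and 69.38 TPM. The constitutive Hspa8 had 3464.71 and 3576.94 TPM against 4062.65 and 3438.66 TPM, which overlapped.

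Stress lists of the endoplasmic reticulum and of amino acids had 11 of 19 and 12 of 23 genes overlapping between the groups, and more of the others lay below both controls than above. The unfolded protein response list had 8 of 19 genes lower (42.1%) and 0 higher, with a median of -0.07, and Herpud1, a factor of protein degradation from the endoplasmic reticulum, had 239.38 and 251.59 TPM against 209.84 and 199.97 TPM. The ATF4 list had 9 of 23 lower and 2 higher, with a median of -0.09. Nupr1, a stress-induced chromatin protein, had 129.54 and 118.87 TPM against 89.3 and 98.23 TPM (log2 difference -0.40, SE 0.0871). Vldlr, a lipoprotein receptor of this list, had 3.84 and 4.56 TPM against 1.33 and 1.82 TPM, with 0.07 and 0.67 TPM in the sg495 libraries. Fgf21, a hormone induced by stress and named after its values were seen, had 26.04 and 22.32 TPM in the controls, 6.99 and 3.6 TPM in the libraries labelled sg492 and 8.11 and 2.29 TPM with sg495 (log2 difference of sg492 from control -2.05, SE 0.496, limma adjusted p = 0.528).

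Proliferation and translation genes differed little in size. Cell cycle and DNA replication had 15 of 40 genes lower and 3 higher, with a median of -0.065 that ran from -0.123 to -0.013 as each library was left out. Rrm2, a subunit of ribonucleotide reductase, had 286.9 and 280.15 TPM against 219.27 and 231.07 TPM (log2 difference -0.33, SE 0.0705). Mki67, a marker of cycling cells, had 61.33 and 53.73 TPM against 50.28 and 64.82 TPM, which overlapped. Ribosomal proteins had 16 of 42 genes lower and 6 higher, with a median of -0.025. Rps7 had the lowest value of that list at -0.62, and Rpl10a the highest, with 329.63 and 301.77 TPM against 393.02 and 396.18 TPM.

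Hypoxia, immediate early and mitochondrial genes separated the 2 libraries labelled sg492 from each other, and hypoxia genes also separated the 2 controls. Over all 12811 genes, 6470 were lower in sg492 replicate 2 than in replicate 1. Of the 33 hypoxia and glycolysis genes, 31 were lower in sg492 replicate 2 than in replicate 1, with a median difference of -0.322. Between the controls, 31 of the 33 were higher in replicate 2, with a median difference of 0.116. Against the controls, 3 genes had both libraries labelled sg492 above both and 4 had both below. Bnip3, a mitophagy receptor induced by hypoxia, had 658.46 and 374.91 TPM in the libraries labelled sg492 and 493.05 and 621.82 TPM in the controls. Car9, a carbonic anhydrase induced by hypoxia, had 380.46 and 257.81 TPM and 307.78 and 332.77 TPM. Of the 23 immediate early genes, 19 were lower in sg492 replicate 2, among them Jun with 193.83 and 102.53 TPM against 122.99 and 121.69 TPM in control. Egr1 and Egr2, zinc finger factors of that list, were above both controls in both libraries, Egr1 with 55.93 and 58.21 TPM against 33.11 and 44.49 TPM. All 13 mitochondrially encoded mRNAs were higher in sg492 replicate 2 than in replicate 1, with a median of 0.52, and 12 of the 13 overlapped between the groups. From control replicate 1 to replicate 2, 13 of the 23 immediate early genes were lower, with a median of -0.018. Of the 13 mitochondrial mRNAs, 10 were higher in control replicate 2, with a median of 0.019.

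Pigment, p53 and receptor genes were divided between the directions. The melanocyte list had 5 of 17 genes higher and 4 lower, with a median of 0.04. Mitf, the master regulator of melanocytes, had 498.19 and 535.23 TPM in the controls and 426.95 and 409.57 TPM in the libraries labelled sg492 (log2 difference -0.30, SE 0.0732), with 368.74 and 383.89 TPM with sg495. The p53 target list had 5 of 17 higher and 4 lower, and Mdm2, the ligase of p53, had 60.28 and 59.2 TPM against 68.43 and 68.89 TPM. MAPK feedback genes had 6 of 16 lower and 3 higher, with a median of -0.12, Spry1 among the lower. Of the 24 tested nuclear receptors, 6 were higher and 5 lower, with a median of 0.07. Esrra, an orphan receptor of energy metabolism, had 21.86 and 20.09 TPM against 24.94 and 33.04 TPM. Nr2f1, the COUP-TF relative of Nr2f6, had 4.98 and 4.23 TPM against 9.42 and 6.19 TPM (log2 difference 0.63, SE 0.283), and Nr2f2 had 19.83 and 30.35 TPM against 23.13 and 18.14 TPM, which overlapped. The 61 tested genes within 1 Mb of Nr2f6 had 10 higher and 12 lower, with a median of 0.01 against 0.003 over all genes.

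NF-kB and inflammatory genes had 4 of 12 higher (33.3%) and 1 lower (8.33%), with a median of 0.18. Relb, an NF-kB subunit, had 7.22 and 5.71 TPM in the controls and 9.77 and 10.17 TPM in the libraries labelled sg492. Collagen and matrix genes had 4 of 17 higher and 2 lower, the genes of collagen folding and modification 6 of 18 higher and 4 lower, oxidative phosphorylation 7 of 29 higher and 8 lower, and metal and oxidative stress 4 of 18 higher and 3 lower. Melanoma drivers and suppressors had 3 of 18 higher and 5 lower, the neural crest and glial list 2 of 11 higher and 4 lower, and interferon receptors and signaling 3 of 13 higher and 4 lower. Mbp, a myelin protein of the neural crest and glial list, had 48.58 and 39.8 TPM against 61.63 and 82.68 TPM. Of the checkpoint genes, 7 of 18 were tested and 1 was lower, Cd274, which encodes PD-L1, with 7.1 and 5.38 TPM in the controls and 4.64 and 4.93 TPM in the libraries labelled sg492. The sg495 libraries differed from sg492 for Cd274 by 2.01 (SE 0.178, limma adjusted p = 0.0182).

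Lists of other cell types ranged from nearly all genes under 1 TPM to about equal numbers on either side. Of the 20 T cell genes, 19 were under 1 TPM in the 4 libraries, of the 12 NK and cytotoxic genes 12, of the 10 neutrophil genes 9, of the 10 B cell genes 9, of the 16 macrophage genes 15, of the 12 fibroblast genes 8, of the 10 keratinocyte genes 9, of the 22 leukocyte genes 13, of the 10 skeletal muscle genes 6 and of the 10 erythroid genes 5. All 4 tested erythroid genes were higher in sg492 replicate 2 than in replicate 1, with a median difference of 0.878. Hba-a2, an alpha-globin gene with a near copy in Hba-a1, had 2.22 and 6.87 TPM in those libraries and 1.13 and 2.32 TPM in the controls. The leukocyte list summed to 865.1 and 836.6 TPM in the controls and 853 and 859.8 TPM in the libraries labelled sg492, and the fibroblast list to 69.84 and 69.18 TPM and 66.19 and 71.57 TPM, so both overlapped. The macrophage list summed to 718.4 and 699 TPM in the controls and 791.3 and 910.1 TPM in the libraries labelled sg492, while Adgre1 and C1qa, which define macrophages, were listed at 0. Apoe, a lipoprotein that pigment cells also express, took most of that sum, with 712.46 and 694.63 TPM against 785.55 and 903.77 TPM.

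**Figure D5:**
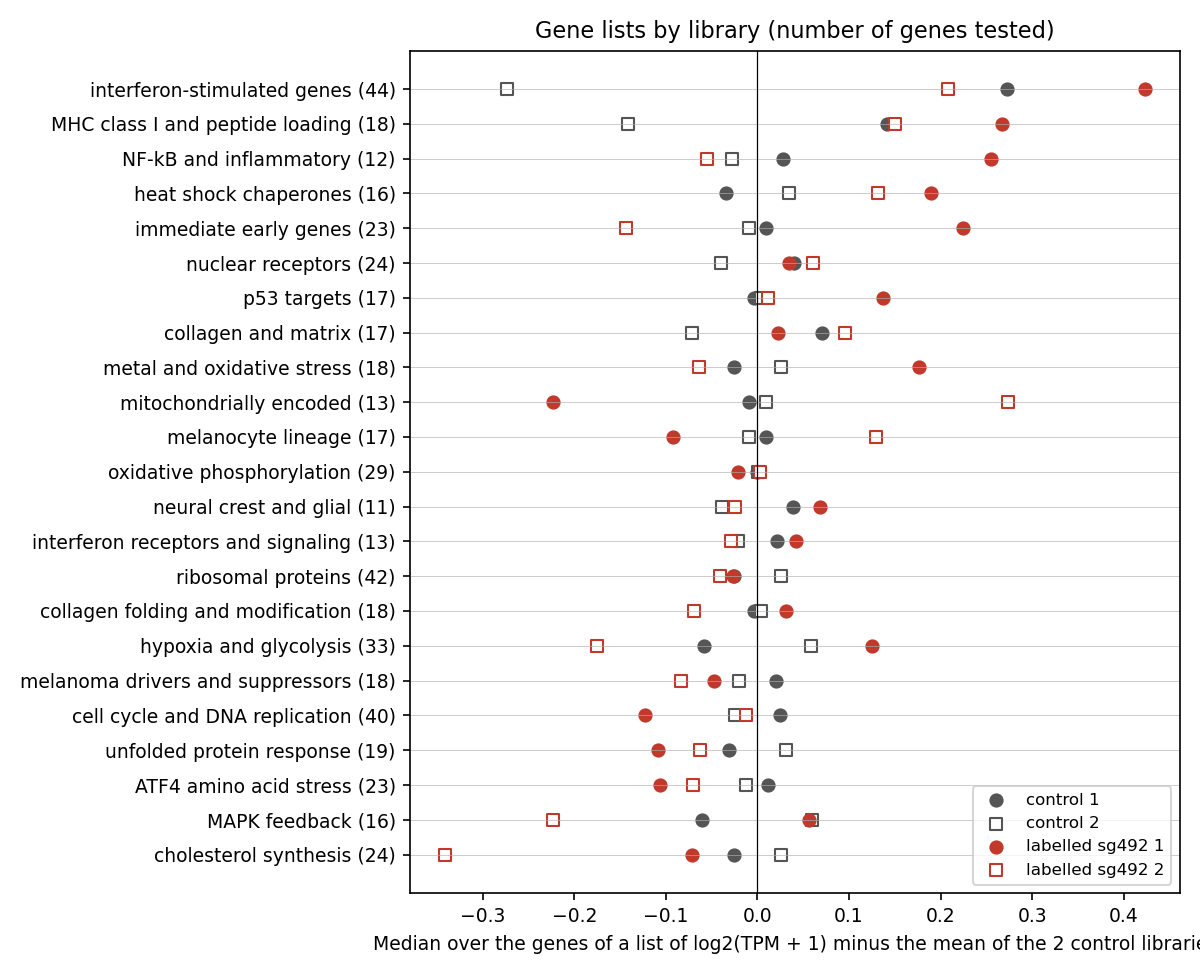
For each list with at least 11 tested genes, the median over its genes of log2(TPM + 1) minus the mean of the 2 controls, with 1 symbol per library. Control 1 and control 2 lie 0.273 above and 0.273 below their mean for interferon-stimulated genes, sg492 replicate 2 is alone at -0.341 for cholesterol synthesis, and both libraries labelled sg492 lie above both controls for heat shock chaperones.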

How the data were processed

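RNA was measured in 4 libraries of sorted tumor cells, 2 labelled control and 2 labelled sg492, with 2 labelled sg495 and 12 of cultured cells and bulk tumors for contrast. Per the submitters' processing notes and the methods, the authors trimmed reads with cutadapt 2.3, aligned them to mm10 with STAR 2.7.0d and estimated levels per gene with RSEM 1.3.1. The deposited values are TPM, so no count test was run. The methods give a depth of 23 to 31 M reads (M, mega), and where each library lies in that range is unknown. The methods' own test on estimated counts was not repeated.

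Here log2(TPM + 1) was fitted with limma 3.58.1 (R 4.3.3, trended empirical Bayes) on the 6 sorted libraries with 1 mean per group, for genes averaging 1 TPM or more in the 4 libraries. The difference of the sg492 effect between sample types was fitted on 18 libraries. A call needed an adjusted p (Benjamini-Hochberg, 2-sided) under 0.05 and at least a 1.5-fold difference. Genes were matched to GENCODE M21 on GRCm38. The text names Nr2f6, 2 genes the study names, the called genes, the 12 protein-coding genes in each direction with the smallest p among those past 1.5-fold, at 5 TPM or more and with groups apart, the 8 with the widest gap within each group, and members of 39 gene lists. Other names were chosen after their values were seen. Some genes that this rule takes in are not reported here. The members and lists were chosen with earlier results of these data known. Data were simulated for the contrast of sg492 with control, over 12811 genes. Of 200 genes changed by 1 on the log2 scale, 126 were recovered, with 6 false calls. Of 200 genes changed by 2, 186 were recovered, with 13 false calls. With no gene changed there was 1 false call. Whether these counts hold for short genes listed at 0 in whole groups was not tested. Alternatives changed the pseudocount, filter, scaling, block, libraries in the fit and trend. The labels give both groups the same replicate numbers but do not call them pairs, and they were not taken as pairs. The deviations of same-numbered control and sg492 libraries had r = -0.031 across genes. Since genes are not independent, this r cannot show whether same-numbered libraries were prepared together. With the replicate number as a block, limma called 0 genes between sg492 and control.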

Additional observations from a re-analysis of the deposited data

Results flagged for a closer look

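The effect of the sg492 label, as log2(TPM + 1) of sg492 minus control, differed between sorted tumor cells and another sample type by the limma test of that difference for the genes below. For Bmyc the effect in sorted cells minus that in cultured cells was -1.32 (SE 0.173, limma adjusted p = 0.0312). For Ehd4 the same quantity was -0.77 (SE 0.111, limma adjusted p = 0.045). With median-of-ratios scaling the limma adjusted p was 0.0513 for Bmyc and 0.117 for Ehd4, and with the replicate number within sample type as a block it was 0.111 and 0.161, so neither passed there. For Snord88a it was 4.13 (SE 0.334, limma adjusted p = 0.000311) against cultured cells and 4.13 (SE 0.274, limma adjusted p = 3.92e-05) against bulk tumors, where it was listed at 0 in all libraries. For Mir678 it was -5.43 (SE 0.759, limma adjusted p = 0.0404) against cultured cells and -5.63 (SE 0.764, limma adjusted p = 0.0407) against bulk tumors. With the block, limma gave adjusted p-values of 0.157 and 0.142 for Mir678, and of 0.0104 and 0.00229 for Snord88a. With a pseudocount of 0.1, the adjusted p of Snord88a against cultured cells was 0.204. These fitted values of Snord88a and Mir678 depend on the pseudocount, since whole groups were listed at 0. Snord88a passed the expression rule only through the sorted libraries labelled sg492, and every other library of the fit was listed at 0. Its SE and p-values are therefore drawn mostly from groups without spread, and they do not measure its spread where it has a value. For RP23-121N17.3, a gene of 128 bases, it was 4.29 against bulk tumors (SE 0.592, limma adjusted p = 0.0407), with 0.05 and 0 TPM in sorted control, 2.12 and 2.3 TPM in sorted sg492, 7.04 and 5.07 TPM in bulk control and 0.25 and 0 TPM in bulk sg492. Its adjusted p in limma was 0.142 with the block.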

How the results depend on the processing

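Between sg492 and control, limma called 5 genes. It called 0 without an expression filter (1454 at an unadjusted p below 0.05), 0 with small RNA, rRNA and mitochondrial genes left out (966), 0 with the replicate number as a block (889), 1 in a fit of the 2 groups alone, 22 in a fit of 18 libraries (3 of the 5 shared), and 0 to 7 as each library was left out. Between sg495 and sg492 it called 57 genes, against 20 without a filter, 35 in a fit of the 2 groups, 307 in a fit of 18 libraries, 28 without trend and 2 to 7 with a library left out. For the difference from cultured cells it called 4 genes, against 7 with a pseudocount of 0.1, 1 with median-of-ratios scaling, 4 with a replicate block within sample type (1 of them shared) and 1 to 15 with a library left out. For the difference from bulk tumors it called 3, against 0 at a mean of 5 TPM (1056 at an unadjusted p below 0.05), 1 with a replicate block within sample type and 4 to 63 with a library left out. The cause of these shifts was not tested. Genes 1.5-fold apart between the libraries labelled sg492 numbered 501 at a mean of 5 TPM, against 1201. With a library left out, list medians ran from -0.003 to 0.263 for MHC class I, from -0.341 to -0.071 for cholesterol synthesis, from -0.109 to -0.033 for the unfolded protein response, from -0.144 to 0.224 for immediate early genes, from -0.092 to 0.129 for melanocyte genes, from 0.006 to 0.137 for p53 targets, from -0.106 to -0.044 for ATF4 genes and from 0.025 to 0.08 for nuclear receptors. Over 30 single genes, 359 alternative values kept direction and side of the threshold, 12 newly passed it and 46 no longer passed it. The 46 all belonged to the 5 called genes, with 10 each for Gm24837 and RP23-383B18.1, 9 each for Gm26917 and Snord88a and 8 for Mir678. Each of these 5 genes kept its call in only 3 to 5 of the alternatives. The other genes were not called in the main fit, so an unchanged value there means that the gene stayed uncalled.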
